A study of Mus musculus with 6 samples.

Results

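The neuropilins, plexins and semaphorins described here are 10 genes, taken by symbol from the 24972 rows of the deposited table: the coreceptors *Nrp1* and *Nrp2*, the plexins *Plxna1*, *Plxnb2* and *Plxnd1*, and the semaphorins *Sema3c*, *Sema4a*, *Sema4b*, *Sema4d* and *Sema6d*. Their RNA was measured by RNA sequencing in untreated bone marrow-derived macrophages, primary cells grown from mouse bone marrow in medium with 20% L929 supernatant. The cells came from Lcn10 knockout mice (Lcn10-KO), which lack the gene of a secreted lipocalin, and from wild-type mice (WT), with 3 libraries per genotype. The labels name neither the strain, age or sex of the mice nor the deleted allele. They do not say whether replicates are separate mice either, so each p reflects variation among libraries that may be partly technical.

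Semaphorins are secreted or membrane-bound guidance proteins that share a sema domain, and plexins are their main signalling receptors. Class 3 semaphorins are secreted and mostly bind a neuropilin, which pairs with a plexin that carries the signal through its GTPase-activating domain to the cytoskeleton and integrins. Neuropilins also bind vascular endothelial growth factors (VEGF), and in macrophages the family is known for roles in migration, immune cell contacts and, in mice, osteoclast formation.

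The stretches before the RefSeq starts of *Nrp1*, *Nrp2*, *Sema4a* and *Sema3c* are shown because the first 2 code for the paired coreceptors and *Nrp1*, *Sema4a* and *Sema3c* are the genes that passed the test below. They are RefSeq sequences of the GRCm38.p6 build, written 5′ to 3′ on the strand of the gene, with GC boxes (GGGCGG on either strand) in capitals. The *Nrp1* stretch is chr8:128358823-128359072 (plus strand), *Nrp2* chr1:62703067-62703284 (plus strand), *Sema4a* chr3:88461183-88461432 (minus strand) and *Sema3c* chr5:17574589-17574618 (plus strand).
Nrp1: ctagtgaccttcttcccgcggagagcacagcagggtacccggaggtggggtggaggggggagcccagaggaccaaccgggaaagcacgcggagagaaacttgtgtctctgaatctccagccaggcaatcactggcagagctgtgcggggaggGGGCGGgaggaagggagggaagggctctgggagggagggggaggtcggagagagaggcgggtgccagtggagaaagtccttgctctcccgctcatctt
Nrp2: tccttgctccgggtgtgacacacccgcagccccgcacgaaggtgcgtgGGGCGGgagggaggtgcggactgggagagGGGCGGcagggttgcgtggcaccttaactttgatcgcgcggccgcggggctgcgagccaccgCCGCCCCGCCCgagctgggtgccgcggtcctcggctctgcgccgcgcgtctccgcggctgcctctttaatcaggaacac
Sema4a: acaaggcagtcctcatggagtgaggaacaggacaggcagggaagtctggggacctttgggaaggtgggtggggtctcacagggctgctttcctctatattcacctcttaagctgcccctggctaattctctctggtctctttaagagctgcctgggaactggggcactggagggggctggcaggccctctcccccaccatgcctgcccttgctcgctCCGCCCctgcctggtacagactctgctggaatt
Sema3c: gctccctgggtgGGGCGGcggcccgtgcag
The *Nrp1* and *Sema4a* stretches cover the full 250 bases before the RefSeq start and no annotated exon. The *Nrp1* stretch lies inside the gene as annotated by GENCODE, which starts earlier, at 128358604. The *Nrp2* stretch stops at 218 bases, where an annotated exon begins. The *Sema3c* window lies wholly in an annotated exon, so only 30 bases of it are given, centred on 1 of its 3 GC boxes. For 9 of the 10 genes RefSeq windows matched by symbol, 17 windows in all. A GC box was found in 13 of the 17 windows, beside 32.7% of all 32851 promoter windows of this length. The 17 windows had a GC content of 45.2% to 78.4%, beside a median of 52.4% over all windows, and GC content was not taken into account in these shares. The PU.1 core GAGGAAGT, the binding motif of a macrophage lineage factor, was in 0 of the 17 (2.44% of all windows), the AP-1 site TGANTCA in 1, a *Sema4d* window (6.75%), the E-box CACGTG in 2 (6.02%) and the TATA box TATAAA in 0 (12.4%), both strands read in each case. These matches describe letters in the windows only.

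The deposited values are normalized read counts with totals of 20476668 to 20636260 per library, which correspond to about 18000000 to 24900000 reads. Macrophage markers were all detected (9 of 9 listed), with summed values of 298311 to 312830 in Lcn10-KO and 284718 to 295218 in WT. Most of these sums came from *Lyz2*, at 193715, 181584 and 186173 in Lcn10-KO and 180316, 165280 and 177723 in WT. *Lyz2* did not pass (limma adjusted p = 0.164). Of the 9 markers, 2 were higher in Lcn10-KO, 2 lower and 5 did not pass. *Mertk*, a receptor for the uptake of dying cells, and *Adgre1*, the gene of F4/80, rose by 0.44 ± 0.06 and 0.26 ± 0.06 (SE) on the log2 scale (limma adjusted p = 0.00128 and 0.0338). *Csf1r*, the receptor for macrophage colony-stimulating factor, and *Cd14*, a coreceptor for lipopolysaccharide, fell by 0.23 ± 0.05 and 0.17 ± 0.05 (SE, limma adjusted p = 0.0129 and 0.0449). *Lcn10* was listed at 0 in all 6 libraries, so it does not check the genotype labels. WT replicate 1 stood apart on the first principal component (39.9% of the variance), at -26.3 against 9.92 to 15.3 in Lcn10-KO and -9.29 and -4.64 in the other WT libraries, and WT replicate 2 on the second (18.5%), at -20.4 against -3.65 to 11.5. Of 12091 tested genes, 1190 differed between the genotypes (9.84%), 568 higher (4.70%) and 622 lower (5.14%) in Lcn10-KO.

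Of the 10 genes, 3 were lower in Lcn10-KO, *Nrp1*, *Sema3c* and *Sema4a*, 0 were higher and 7 did not pass the test, which was limma on log2(value + 1) with Benjamini-Hochberg adjustment over all tested genes and a threshold of 0.05. That is 30% of a small set beside 9.84% of all tested genes, and all 10 passed the filter on low values. The median log2 fold change over the 10 genes was -0.12, beside -0.0011 over all tested genes. An unadjusted p under 0.05 was reached by 8 of the 10, beside 26.3% of all tested genes. The genotypes did not overlap in 5 of the 10, beside 32.4% of all tested genes. Of the 13 other tested genes of these families, 2 had an unadjusted p under 0.05 and 2 had genotypes that did not overlap. The 10 genes were chosen with earlier results of these data known, so these shares are a description only. The 5 receptors had log2 fold changes between -0.21 and 0.15, and the 5 semaphorins between -1.21 and 0.55. All 3 calls were lost in limma without the mean-variance trend (adjusted p = 0.11 for *Nrp1*, 0.153 for *Sema3c* and 0.0962 for *Sema4a*), a setting in which 14 genes of the whole table passed (0.116%). Without Lcn10-KO replicate 1, 1 of the 10 passed (*Nrp1*), beside 4.71% of all tested genes. Without Lcn10-KO replicate 2 or Lcn10-KO replicate 3, 0 of the 10 passed, beside 1.72% and 1.46% of all tested genes.

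**Figure D1:**
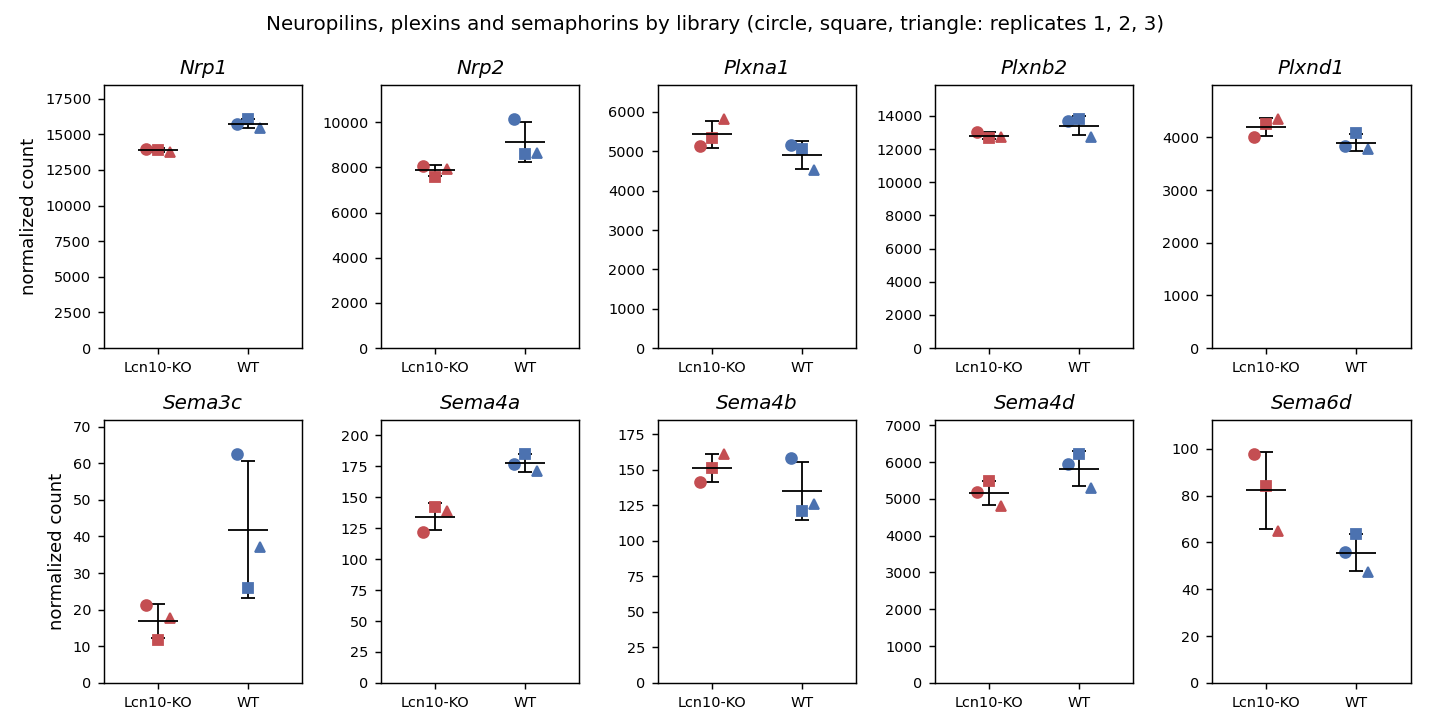
Normalized count of each of the 10 genes in every library, with Lcn10-KO left of WT; points are libraries, the long bar is the mean and the error bar the SD (n = 3 each), on linear axes that start at 0. The genotypes do not overlap for *Nrp1*, *Nrp2*, *Sema3c*, *Sema4a* and *Sema6d*.

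Of the coreceptors, *Nrp1* (chromosome 8, 128358604 to 128503363, plus strand, GENCODE on GRCm38), which binds class 3 semaphorins and VEGF-A, had normalized counts of 13994, 13887 and 13742 in the Lcn10-KO libraries (replicates 1 to 3, the order kept throughout) and of 15716, 16049 and 15468 in the WT libraries. The Lcn10-KO libraries lay close together and all below the WT libraries, with an SD of 126 against 292. *Nrp1* fell by 11.9% in Lcn10-KO (log2 fold change -0.18 ± 0.04 (SE), limma adjusted p = 0.0131), a small change in an abundant transcript, and ranked 323rd of the 12091 genes by p. It lost its call without Lcn10-KO replicate 2 (adjusted p = 0.0744) or Lcn10-KO replicate 3 (0.0673), with log2 fold changes of -0.183 and -0.175, and had an adjusted p of 0.00373 without WT replicate 1. In bulk RNA, fewer cells of a type and less RNA per cell cannot be told apart.

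*Nrp2* (chromosome 1, 62703285 to 62818695, plus strand), the coreceptor that also binds VEGF-C, had 8073, 7577 and 7947 in Lcn10-KO and 10129, 8592 and 8650 in WT. The genotypes did not overlap, and WT replicate 1 was far above the other WT libraries. Its log2 fold change, -0.21 ± 0.06 (SE), was as large as that of *Nrp1* but did not pass (limma adjusted p = 0.0525). Without WT replicate 1 the log2 fold change was -0.133 with an adjusted p of 0.0432, and without WT replicate 2 it was -0.251 with an adjusted p of 0.0255, both past the threshold. Under quantile normalization (0.0393) and a filter of at least 50 in 3 libraries (0.0492) it passed as well. The ratio of *Nrp1* to *Nrp2* counts was 1.73, 1.83 and 1.73 in Lcn10-KO and 1.55, 1.87 and 1.79 in WT, so the balance of the pair overlapped between the genotypes.

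None of the 3 plexins passed the test at the 0.05 threshold by limma, while *Plxna1* and *Plxnd1* had unadjusted p of 0.0332 and 0.0400. *Plxna1* (chromosome 6, 89316314 to 89362620, minus strand), which signals for class 3 semaphorins with neuropilins and binds *Sema6d*, was at 5129, 5341 and 5815 in Lcn10-KO and at 5158, 5055 and 4514 in WT. The groups overlapped, since WT replicate 1 lay above Lcn10-KO replicate 1 (log2 fold change 0.15 ± 0.06 (SE), limma adjusted p = 0.150). *Plxnd1* (chromosome 6, 115954811 to 115995005, minus strand), a receptor for Sema3E and, in mice, Sema4A, was at 4007, 4247 and 4345 in Lcn10-KO and at 3832, 4081 and 3786 in WT. It too overlapped, through WT replicate 2, with a log2 fold change of 0.11 ± 0.05 (SE, limma adjusted p = 0.167). *Plxnb2* (chromosome 15, 89155549 to 89180788, minus strand), a receptor for class 4 semaphorins, was at 13055, 12654 and 12702 in Lcn10-KO and at 13684, 13795 and 12752 in WT. Here WT replicate 3 lay below Lcn10-KO replicate 1, and the log2 fold change was -0.07 ± 0.04 (SE, limma adjusted p = 0.358).

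Among the ligands, *Sema3c* (chromosome 5, 17574281 to 17730268, plus strand), the secreted class 3 semaphorin known for its part in heart outflow tract development, was low. Its normalized counts were 21.2, 11.8 and 17.6 in Lcn10-KO and 62.5, 26.0 and 37.1 in WT. The genotypes did not overlap, but WT replicate 1 was far above the rest, and the values rest on about 20, 14 and 17 reads in Lcn10-KO and 55, 23 and 45 reads in WT. *Sema3c* fell by 1.21 ± 0.33 (SE) on the log2(value + 1) scale, which understates the change of low genes (limma adjusted p = 0.0391). It kept an adjusted p under 0.05 without WT replicate 2 (0.0113) and lost it without each of the other libraries, with 0.0588, 0.163 and 0.121 without Lcn10-KO replicates 1, 2 and 3 and 0.0928 and 0.0848 without WT replicates 1 and 3. Without WT replicate 1 its log2 fold change was -0.883.

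*Sema4a* (chromosome 3, 88435959 to 88461182, minus strand), a membrane semaphorin known in mice for T cell costimulation, had 122, 142 and 139 in Lcn10-KO and 177, 185 and 171 in WT. All Lcn10-KO libraries lay below all WT libraries. *Sema4a* fell by 24.3% (log2 fold change -0.40 ± 0.11 (SE), limma adjusted p = 0.0373). Without WT replicate 1 it kept its call (adjusted p = 0.0421), and it lost it without Lcn10-KO replicates 1, 2 or 3 (0.128, 0.101 and 0.0975) and without WT replicates 2 or 3 (0.0666 and 0.0680).

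*Sema4d* (chromosome 13, 51685529 to 51793747, minus strand), also known as CD100, which binds B-type plexins and CD72, was the most abundant semaphorin. It was at 5174, 5477 and 4819 in Lcn10-KO and at 5952, 6218 and 5301 in WT. WT replicate 3 lay below Lcn10-KO replicate 2, and the log2 fold change of -0.17 ± 0.06 (SE) did not pass (limma adjusted p = 0.113), although it did without WT replicate 3 (-0.240, adjusted p = 0.0326). *Sema4b* (chromosome 7, 80186841 to 80226527, plus strand), another membrane-bound class 4 semaphorin, was at 141, 151 and 161 in Lcn10-KO and at 158, 121 and 126 in WT. The groups overlapped through WT replicate 1 (log2 fold change 0.17 ± 0.13 (SE), limma adjusted p = 0.443). The counts of *Sema4d* were 42.3, 38.6 and 34.7 times those of *Sema4a* in the same Lcn10-KO libraries and 33.7, 33.6 and 30.9 times in WT.

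*Sema6d* (chromosome 2, 124089969 to 124667770, plus strand), a transmembrane semaphorin that in mice acts on *Plxna1* and also signals back into macrophages through its own cytoplasmic tail, was at 97.8, 84.0 and 65.0 in Lcn10-KO and at 56.1, 63.5 and 47.4 in WT. The genotypes did not overlap, with Lcn10-KO replicate 3 just above WT replicate 2. Its log2 fold change was the largest positive one of the 10 genes at 0.55 ± 0.19 (SE) and did not pass (limma adjusted p = 0.0853).

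To set the genes beside each other, values were divided by the merged exon length in GENCODE M21. Per kilobase, *Plxnb2* averaged 1658 ± 28.4 in Lcn10-KO and 1737 ± 74.2 in WT (normalized counts per kilobase, SD, n = 3 each, as in the values that follow). *Nrp1* followed with 1418 ± 12.9 in Lcn10-KO and 1609 ± 29.8 in WT, then *Nrp2* with 664 ± 21.8 and 770 ± 73.6, and *Sema4d* with 672 ± 42.9 and 758 ± 61.4 (Lcn10-KO and WT). *Plxna1* was at 599.5 ± 38.8 in Lcn10-KO and 542 ± 38.2 in WT, and *Plxnd1* at 575 ± 23.9 and 534 ± 21.7 (Lcn10-KO and WT). The other 4 semaphorins were far lower, *Sema4a* at 24.9 ± 1.95 in Lcn10-KO and 32.8 ± 1.26 in WT, *Sema4b* at 26.7 ± 1.75 and 23.9 ± 3.52, *Sema6d* at 7.79 ± 1.56 and 5.27 ± 0.762, and *Sema3c* at 2.36 ± 0.671 and 5.87 ± 2.62, each in Lcn10-KO and in WT. Over the 6 libraries the neighbours in this order did not overlap between *Nrp1* and *Nrp2*, between *Plxnd1* and *Sema4a*, and between *Sema4b* and *Sema6d*. All other neighbours overlapped. The order depends on the length used: with the mean length of coding transcripts, *Nrp1* (4114 normalized counts per kilobase, mean of 6 libraries) stood above *Plxnb2* (2032), *Sema4d* (1504) above *Nrp2* (1381), and *Plxnd1* (1066) above *Plxna1* (697). Among the tested semaphorins, *Sema4d* took 66.9% to 70.5% of the summed level per kilobase in Lcn10-KO libraries and 69.8% to 72.9% in WT libraries. Among the tested plexins, *Plxnb2* took 46.7% to 50.1% in Lcn10-KO and 51.8% to 52.7% in WT.

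**Figure D2:**
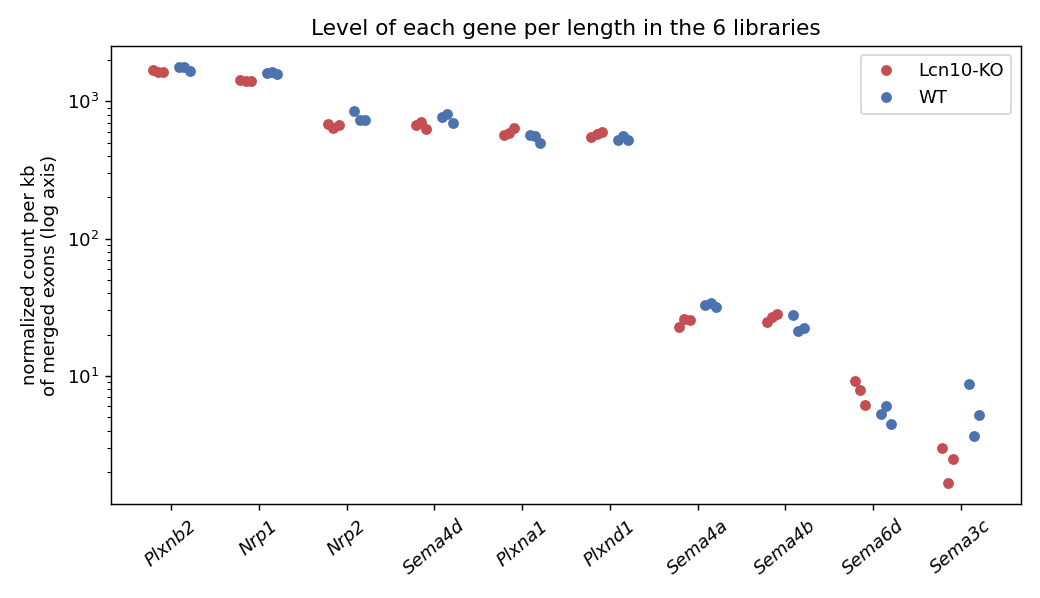
Normalized count per kilobase of merged exons in each library (log axis), Lcn10-KO left of WT for each gene, ordered by the mean of the 6 libraries. *Plxnb2* and *Nrp1* lie highest, and *Sema4a*, *Sema4b*, *Sema6d* and *Sema3c* lie more than 10-fold below the receptors.

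The table holds 31 genes of the neuropilin, plexin and semaphorin families, of which 23 were tested, and the 8 left out did not exceed 7.43 in any library. Of the 13 tested genes besides the 10 above, 1 was higher in Lcn10-KO (7.69%, beside 9.84% of all tested genes called), 0 were lower and 12 did not pass. That gene was *Plxnc1*, the receptor for Sema7A, at 4137, 4407 and 4715 in Lcn10-KO and 3555, 3698 and 3770 in WT. Every Lcn10-KO library lay above every WT library, and *Plxnc1* rose by 0.26 ± 0.05 (SE) on the log2 scale (limma adjusted p = 0.00974). It lost the call without Lcn10-KO replicate 2 (0.0588) (likewise 0.0611 without replicate 3) and in the fit with no mean-variance trend (0.120), and 115 of its exon bases overlap *Gm48718*. Its ligand gene *Sema7a* was at 166, 126 and 120 in Lcn10-KO and 182, 135 and 150 in WT (log2 fold change -0.18 ± 0.15 (SE), limma adjusted p = 0.481), with log2 fold changes of -0.328 to -0.0655 when 1 library was left out. Of the other A-type and B-type plexins, *Plxna4* and *Plxnb1* had the log2 fold changes farthest from 0, -0.49 ± 0.21 and 0.69 ± 0.37 (SE), with limma adjusted p of 0.150 and 0.255; without WT replicate 1 they were -0.293 and 0.431. *Sema3a*, a classical ligand of *Nrp1*, was low but its genotypes did not overlap, at 18.6, 20.2 and 16.2 in Lcn10-KO and 12.5, 15.5 and 3.22 in WT (0.98 ± 0.47 (SE), limma adjusted p = 0.209). Without WT replicate 3 its log2 fold change was 0.374. The remaining tested genes, *Plxna2*, *Plxna3*, *Plxnb3*, *Sema3f*, *Sema4c*, *Sema5a*, *Sema6b* and *Sema6c*, had adjusted p of at least 0.407.

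**Figure D3:**
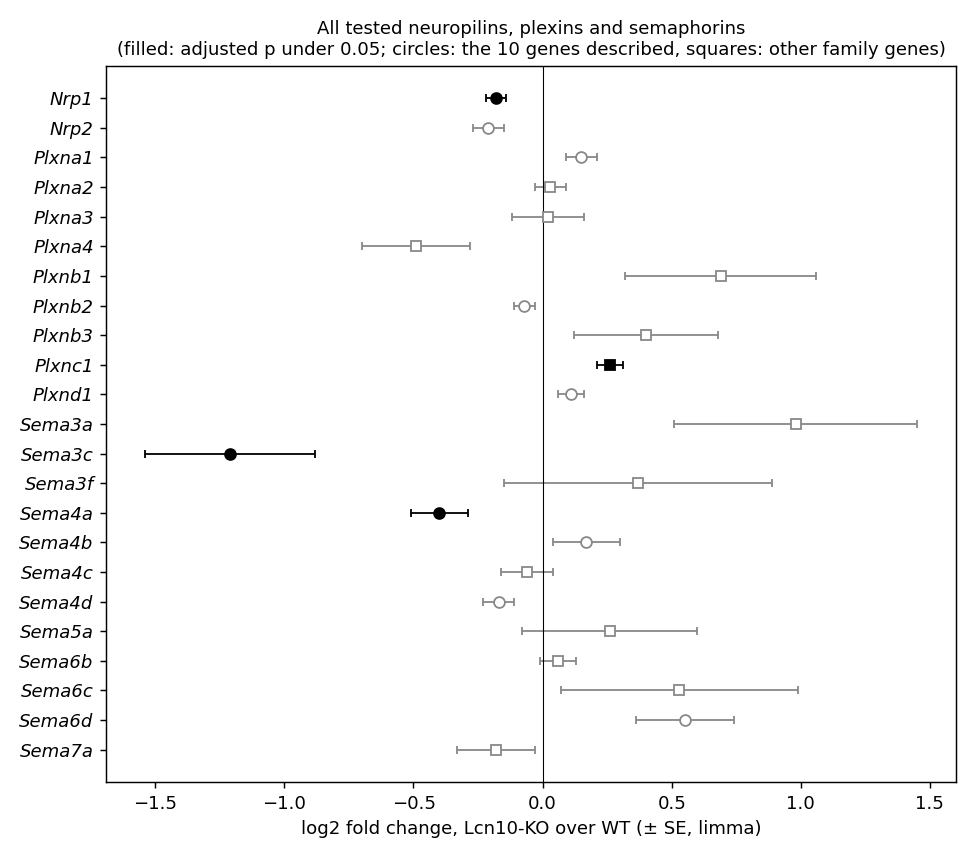
Log2 fold change of Lcn10-KO over WT with its SE for the 23 tested genes of the families; circles are the 10 genes described and squares the other family genes, filled where the limma adjusted p is under 0.05. *Nrp1*, *Sema3c* and *Sema4a* lie below 0 and *Plxnc1* above it.

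Partner receptors were taken from a list of 16 genes, 14 of them tested. Of these, 2 passed as higher and 2 as lower (28.6% called, beside 9.84% of all tested genes, with a median log2 fold change of -0.05). This list and the VEGF and effector lists below were chosen with earlier results of these data known, so their shares are a description only. *Havcr2*, which codes for the inhibitory receptor TIM-3, a relative of the mouse Sema4A receptor TIM-2, was at 695, 660.5 and 641 in Lcn10-KO and 967, 869.8 and 917 in WT. It fell by 0.46 ± 0.06 (SE) on the log2 scale (limma adjusted p = 0.00125) and kept an adjusted p under 0.05 without each library in turn (at most 0.0214), but not in the fit without the mean-variance trend (0.0764). *L1cam*, an adhesion molecule found in complexes with neuropilin-1, fell by 0.47 ± 0.11 (SE), at 389, 392 and 462 in Lcn10-KO and 684, 528 and 521 in WT (limma adjusted p = 0.0311). *Nrcam*, a relative of it that partners neuropilin-2, rose by 0.80 ± 0.17 (SE), at 83.0, 106 and 111 in Lcn10-KO and 49.0, 62.5 and 58.5 in WT (limma adjusted p = 0.0139). *Tyrobp*, the adaptor DAP12 that in mouse osteoclasts and dendritic cells joins *Plxna1* through *Trem2*, rose by 0.18 ± 0.05 (SE, limma adjusted p = 0.0449), at 16744, 17059 and 15681 in Lcn10-KO and 13534, 14815 and 15330 in WT. *Trem2* itself overlapped between the genotypes (0.12 ± 0.06 (SE), limma adjusted p = 0.216). *Timd2*, the gene of TIM-2, was listed at 0 in every library. *L1cam*, *Nrcam* and *Tyrobp* lost their calls without Lcn10-KO replicate 2 (adjusted p = 0.129, 0.0811 and 0.198) or Lcn10-KO replicate 3 (0.0587, 0.0849 and 0.0748), *L1cam* and *Tyrobp* also without Lcn10-KO replicate 1 (0.105 and 0.145), and *Tyrobp* without WT replicate 1 (0.0577).

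Of the 4 tested VEGF genes, 0 passed by limma, beside 9.84% of all tested genes, and 2 had an unadjusted p under 0.05, beside 26.3%. *Vegfa*, the ligand that neuropilin-1 presents, was at 1102, 1169 and 1079 in Lcn10-KO and 980, 998 and 1002 in WT, without overlap (log2 fold change 0.17 ± 0.05 (SE), limma adjusted p = 0.0536). *Vegfa* passed under quantile normalization and with the filter of at least 50 in 3 libraries, and under none of the other alternatives. The VEGF receptor gene *Kdr* was at 192, 238 and 183 in Lcn10-KO and 279.9, 209 and 205 in WT (limma adjusted p = 0.470).

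Of 43 tested genes in a list of plexin and neuropilin effectors, 2 were higher, 2 lower and 39 did not pass, 9.30% called beside 9.84% of all tested genes. *Rnd2* and *Rnd3*, atypical small GTPases of a group that binds the cytoplasmic part of plexins, rose by 0.44 ± 0.12 and 0.30 ± 0.08 (SE) on the log2 scale (limma adjusted p = 0.0406 and 0.0304). *Rnd2* was at 208, 168 and 198 in Lcn10-KO and 122, 154 and 146 in WT. *Rnd3* was at 396, 359 and 372 in Lcn10-KO and 292, 324 and 298 in WT. *Tiam1*, an activator of Rac, and *Elmo1*, which works with Dock1 to activate Rac, fell by 0.21 ± 0.06 and 0.20 ± 0.05 (SE, limma adjusted p = 0.0460 and 0.0287). *Tiam1* was at 534, 505 and 513 in Lcn10-KO and 581, 604 and 606 in WT. *Elmo1* was at 2980.3, 2824 and 2967 in Lcn10-KO and 3608, 3284 and 3199.7 in WT. Each of these 4 genes lost its call without any 1 of the Lcn10-KO libraries (adjusted p of 0.0709 to 0.178). *Rnd2* also lost it without WT replicate 1 or 3 (0.0742 and 0.0688), *Rnd3* without WT replicate 3 (0.0734) and *Tiam1* without WT replicate 2 or 3 (0.0750 and 0.11).

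**Figure D4:**
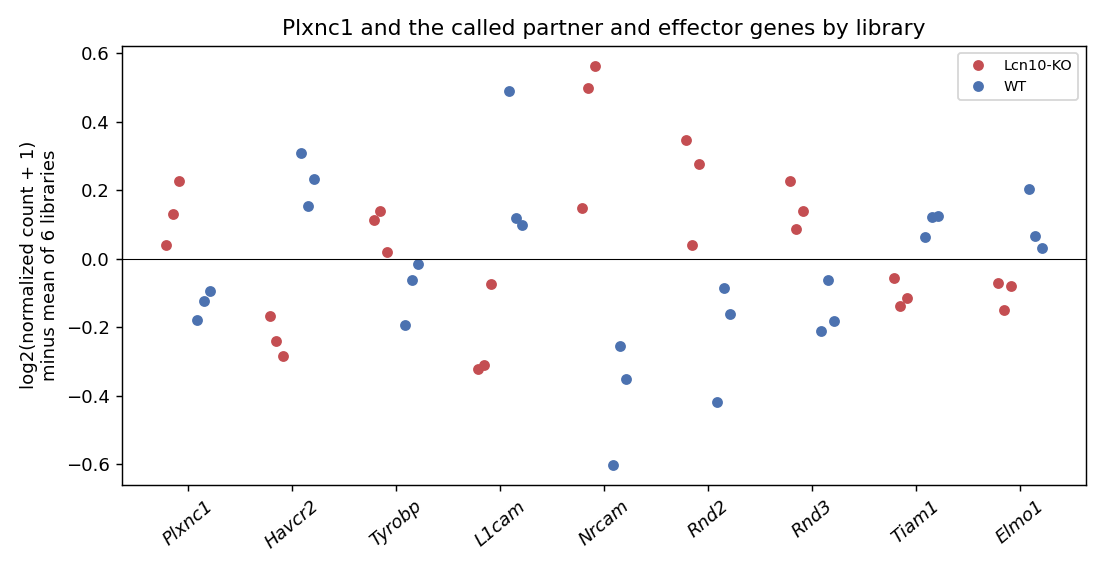
Deviation of log2(normalized count + 1) from the mean of the 6 libraries for *Plxnc1* and the 8 partner and effector genes that passed the test, Lcn10-KO left of WT; points are libraries. In each of these genes the 3 Lcn10-KO libraries lie on one side of the 3 WT libraries.

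Endothelial cells express neuropilins and *Plxnd1* strongly, so their markers are given beside the receptor values. All 10 listed endothelial markers were above 0, with summed values of 1495 to 2121 in Lcn10-KO and 1397 to 1603 in WT; 1 of the 8 tested was higher in Lcn10-KO, 0 were lower and 7 did not pass. The one called was *Vwf*, von Willebrand factor, which made up most of the sums, at 1158, 1283 and 1279 in Lcn10-KO and 1118, 1071 and 1058 in WT (log2 fold change 0.19 ± 0.05 (SE), limma adjusted p = 0.0424). *Pecam1* was at 49.5, 161 and 89.3 in Lcn10-KO and 41.1, 67.5 and 44.7 in WT, and *Cdh5* at 40.5, 165 and 93.7 in Lcn10-KO and 80.5, 49.1 and 39.5 in WT. Their log2 fold changes were 0.83 ± 0.44 and 0.66 ± 0.58 (SE). Those of *Emcn*, *Esam*, *Tie1* and *Erg* were 0.92 ± 0.54, 0.26 ± 0.53, 1.04 ± 0.52 and 1.22 ± 0.5 (SE). *Kdr*, given above, was the only tested endothelial marker with a negative log2 fold change, -0.17 ± 0.14 (SE). Lcn10-KO replicate 2 was the highest library for 9 of the 10 endothelial markers. Of the 8 fibroblast and stromal markers, all were above 0, with sums of 3998 to 4485 in Lcn10-KO and 3039 to 4748 in WT. WT replicate 1 was the highest library for 6 of these 8 markers, and 0 of the 7 tested passed by limma. The dendritic cell list (8 of 8 above 0, mostly *Itgax*) summed to 1807 to 2316 in Lcn10-KO and 1352 to 2044 in WT, and the osteoclast list (6 of 7 above 0, *Calcr* at 0) to 651 to 810.2 in Lcn10-KO and 532 to 771 in WT. T and NK cell markers summed to 7.45 to 18.7 in Lcn10-KO and 9.06 to 16.0 in WT, with *Cd8a* and *Ncr1* at 0. The part of these cell types in the results was not tested.

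The genes whose log2 values followed each called gene most closely over the 6 libraries, by Pearson's r and as a description only, were *Pgm1*, *Dgkd* and *Sin3a* for *Nrp1* (0.995, 0.995 and 0.994). For *Sema3c* they included *Rmi2* and *Ibtk* (0.997 and 0.995), and for *Sema4a* they were *Ube3b*, *Pcbp2* and *Csnk2a1* (0.992, 0.991 and 0.989). These 6 libraries carry the genotype difference, which the correlations share. Of the genes named here, *Dgkd*, a diacylglycerol kinase, was lower in Lcn10-KO by limma (-0.14 ± 0.04 (SE) on the log2 scale, adjusted p = 0.0373). Among the described genes, *Nrp2* and *Sema3c* had an r of 0.97, and both were highest in WT replicate 1.

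In genome coordinates, the nearest tested genes on either side of the 3 called genes did not pass the test. *Itgb1*, the integrin beta 1 subunit, 182 kb to the right of *Nrp1* (higher coordinates), had a log2 fold change of 0.01 ± 0.04, and *Pard3*, a polarity protein, 746 kb to its left, -0.14 ± 0.32 (SE, limma adjusted p = 0.920 and 0.837). *Cd36*, a scavenger receptor 51.4 kb to the right of *Sema3c*, had 0.11 ± 0.05 and *Hgf*, hepatocyte growth factor, 954 kb to its left, 0.30 ± 0.09 (limma adjusted p = 0.151 and 0.0502), while *Sema3c* was lower. *Lmna*, the gene of lamin A, 19.0 kb to the right of *Sema4a*, had -0.16 ± 0.05 and *Slc25a44*, a mitochondrial carrier 10.8 kb to its left, -0.02 ± 0.08 (limma adjusted p = 0.0502 and 0.892). Of the 10 genes, 3 share exon bases with another annotated gene, *Nrp1* with *Mir1903* and *Sema4a* with *Mir7011* (80 and 73 bases, both microRNA genes listed at 0 in every library) and *Plxna1* with *Gm26811* on the opposite strand (970 bases). *Gm26811* is not among the deposited gene rows. In the shared bases, 970 of the 9054 exon bases of *Plxna1*, reads of both genes cannot be told apart without known strand use.

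**Figure D5:**
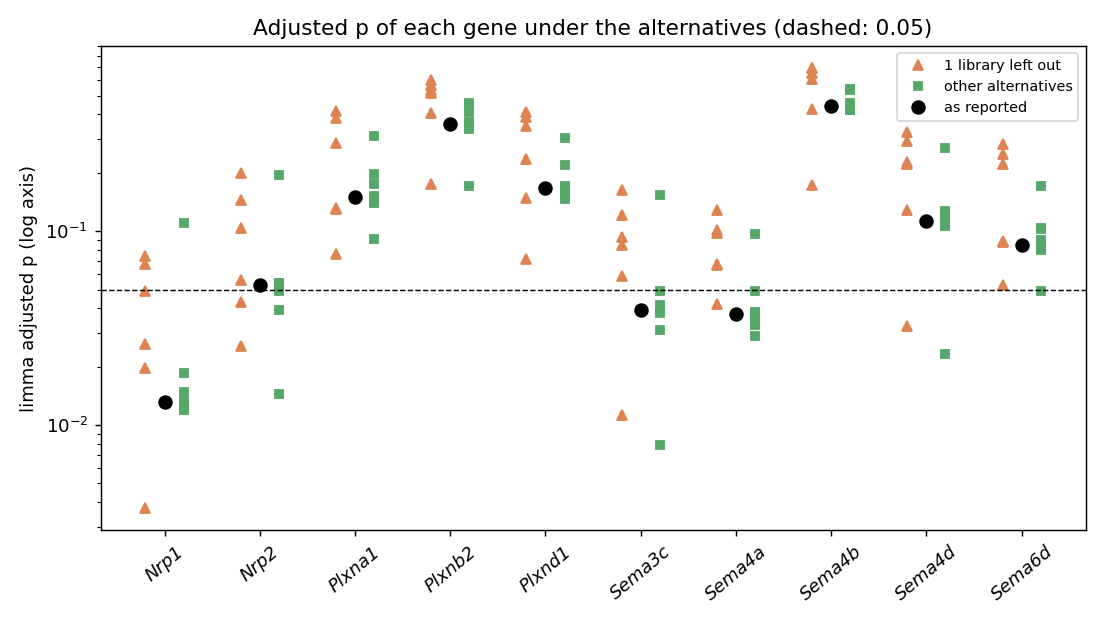
Limma adjusted p (log axis) of each of the 10 genes as reported (black), with 1 library left out (triangles) and under the other alternatives (squares); the dashed line is 0.05. *Nrp1* passed in 4 of 6 leave-outs, *Nrp2* in 2, *Sema3c*, *Sema4a* and *Sema4d* in 1 each and the other 5 genes in 0.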

How the data were processed

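The deposited table holds 24972 gene rows and a column for each of 6 libraries, matched to the samples by library name. The deposited values are a signal, read counts that the authors scaled between libraries. DESeq2, Salmon 0.11.2, STAR 2.6.1a, bcl2fastq and the build mm10 are named, without roles, per the submitters' processing notes. For annotation, filters and strand setting nothing was stated in the sources used here. Of the values under 20, 85.4% to 90.4% per library were whole multiples of the value of 1 read (0.824 to 1.14) within 0.1 reads, so whole reads were not recovered and no count test was run. Genes with at least 10 in at least 3 libraries (12091) were fitted as log2(value + 1) with limma 3.58.1 in R 4.3.3, genotype as the only term, with trend and robust estimation. This procedure was tested on simulated counts with the same dispersion for all genes and no library that stood apart, unlike the deposited data. It recovered 36 of 50 genes changed 1.25-fold and 48 of 50 changed 1.5-fold, with 9 false calls. P-values were adjusted over all tested genes. A positive log2 fold change means higher in Lcn10-KO.

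Exon lengths and gene positions came from GENCODE M21 (GRCm38, the assembly behind mm10), promoter windows from RefSeq (GRCm38.p6). The genes and lists were chosen with earlier results of these data known. Named were the 10 genes, the other tested family genes, called partner, VEGF and effector genes, *Lcn10*, and, for each called gene, the 3 most correlated genes and both nearest tested neighbours; 1 correlated gene is not reported here. Others (*Kdr*, *Trem2*, *Timd2*, *Vegfa* and the single markers) were named after their values were seen. Plots were made in Python 3.11.15 (matplotlib 3.10.9).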

Additional observations from a re-analysis of the deposited data

How the results depend on the processing

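Every alternative kept the direction of all 10 genes. Rescaling, pseudocounts of 0.5 and 10 and estimation that is not robust changed no call among them, and no filter on low values changed none. With 1 library left out, the number of the 10 genes called ranged from 0 to 3, that of all genes from 175 to 1664, that of the 31 family genes from 0 to 4 and that of the partner, VEGF and effector genes from 1 to 11. Without the mean-variance trend these counts were 0, 14, 0 and 0, and the log2 fold changes of *Nrp1*, *Sema3c* and *Sema4a* (-0.182, -1.21 and -0.401) lost their calls; the cause was not tested. With 1 library left out, log2 fold changes ranged from -0.195 to -0.168 for *Nrp1*, -0.251 to -0.133 for *Nrp2*, -1.50 to -0.883 for *Sema3c*, -0.441 to -0.336 for *Sema4a* and -0.240 to -0.125 for *Sema4d*. *Nrp2* passed under quantile normalization (-0.218) and with the filter of 50 (-0.210), where *Sema3c* was not tested. *Rnd2* and *Tiam1* lost their calls under quantile normalization (adjusted p = 0.0516 and 0.0578), *Tiam1* with no filter (0.0657) and *Tyrobp* without robust estimation (0.0539). With the mean length of coding transcripts, levels per kilobase were 4114 for *Nrp1*, 1381 for *Nrp2*, 697 for *Plxna1*, 2032 for *Plxnb2*, 1066 for *Plxnd1*, 9.36 for *Sema3c*, 84.8 for *Sema4a*, 37.1 for *Sema4b*, 1504 for *Sema4d* and 12.7 for *Sema6d*.

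A replicate block used the replicate numbers as pairs. Deviations of same-numbered libraries correlated at 0.0381, 0.0733 and 0.0140, and those of differently numbered libraries at -0.0633 to 0.0263. Each Lcn10-KO library and WT replicates 1 and 2 correlated best with the same-numbered library of the other genotype. WT replicate 3 correlated best with Lcn10-KO replicate 1 (0.0263). The labels do not say whether same-numbered libraries belong together, and this was not tested. With the block 6 of the 10 genes passed, beside 13.3% of all tested genes (1607 genes). *Nrp2* (-0.210), *Sema4d* (-0.174) and *Sema6d* (0.546) were among the 6, and 7 family genes passed. Depth limits *Sema3c*, with 14 to 55 reads per library. A count test was not run.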
